A study of Homo sapiens with 6 samples.

Results

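Aminoacyl-tRNA synthetases, the enzymes that load each tRNA with its amino acid, were read on 6 gene expression arrays of the human rhabdomyosarcoma line RD18. The 35 genes were chosen by name: 19 that encode the cytosolic enzymes and 16 that encode mitochondrial ones. All 35 were found among the 18417 genes that had a row of their own, and a gene with more than 1 row was represented by the row with the highest mean over the 6 arrays. GARS1 and KARS1 are known to supply both compartments and were counted as cytosolic.

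RD18 is an established line of embryonal rhabdomyosarcoma, a tumour with traits of immature skeletal muscle. The induced miR-22 cells were RD18 NpBI-22 cells given doxycycline at 1 µg/ml for 6 days, with 2 arrays. The non-induced miR-22 cells were the same line left untreated, also with 2 arrays, and these replicates were biological according to the series. Induced and non-induced RD18 NpBI-206AS cells, treated in the same way, had 1 array each and were added as further controls. The labels do not state the product of the NpBI-206AS construct, so doxycycline and that product cannot be told apart in that line. The labels also do not say whether either derivative is a single clone.

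A synthetase typically recognises a single amino acid and its tRNAs and joins them at the cost of ATP, and the charged tRNA then carries the residue to the ribosome. Cytosolic synthetases serve the translation of nuclear genes, while mitochondrial synthetases, encoded in the nucleus and imported, serve the few proteins translated inside mitochondria. When amino acids run short or unfolded proteins accumulate, phosphorylation of eIF2α favours translation of the transcription factor ATF4, and many cytosolic synthetase genes have been reported among its targets. A microRNA such as miR-22 pairs with mRNAs mainly through its seed and lowers them. The mature miR-22 strand in RefSeq (GRCh38.p14, chr17:1713914-1713935, minus strand) is shown here because its expression defines the induced cells, with the seed (bases 2 to 8) in capitals.
hsa-miR-22-3p: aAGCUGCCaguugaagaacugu

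MIR22HG, the host transcript of miR-22, had log2 values of 10.02 and 10.01 on the induced miR-22 arrays, against 6.27 and 6.72 on the non-induced ones, and it had 6.32 on the induced and 6.41 on the non-induced NpBI-206AS array. The array codes share 1 prefix on both induced miR-22 arrays that no other array carries. A different prefix belongs to non-induced miR-22 replicate 1 alone, and another is shared by non-induced miR-22 replicate 2 and the pair of NpBI-206AS arrays. The meaning of the prefix is not stated in the labels, and prefix and induction of miR-22 cannot be told apart. Over all rows the 3 arrays with the shared prefix correlated at 0.994 to 0.995, the induced miR-22 pair at 0.993 and the non-induced miR-22 pair at 0.987. Over the synthetase genes the median absolute difference was 0.135 between the induced miR-22 arrays, 0.244 between the non-induced miR-22 arrays and 0.0819 to 0.0916 among the 3 arrays with the shared prefix. The muscle genes MYOD1, MYOG, PAX7, DES and CHRNA1 lay between 6.78 and 11.79 on all arrays, while MYF5, at 3.88 to 3.96, stood near the lower quartile of the rows. DES, which encodes the muscle filament desmin, fell by 1.07 in induced relative to non-induced miR-22 cells (adjusted p = 0.0384, limma). The 6 markers of blood, epithelium and endothelium stayed between 2.66 and 4.56, below every array's median, which ranged from 5.66 to 5.75.

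Every one of the 35 synthetase genes lay above all 6 array medians on every array, with values between 6.06 and 11.91. Differences are in log2 units, and an adjusted p is that of limma with Benjamini-Hochberg adjustment over all 33297 rows, called below 0.05. Between the induced and the non-induced miR-22 cells, 1 of the 35 genes rose, and none fell. Over all genes, 1.73% rose and 1.53% fell, so the share called among the synthetases was near that of the array as a whole. At an unadjusted p under 0.05 there were 6 higher and 4 lower among the 35, beside 12.1% higher and 9.12% lower over all genes. In 11 of the 35 genes both induced arrays lay above both non-induced arrays, and in 8 both lay below. The same held for 27.9% and 24.5% of all genes. These are bulk cultures, in which fewer cells of a type and less RNA per cell cannot be told apart.

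WARS1, the cytosolic tryptophan enzyme, was the gene that rose. It read 10.45 and 10.34 on the induced miR-22 arrays, against 9.52 and 9.58 on the non-induced miR-22 arrays. It read 9.58 on both the induced and the non-induced NpBI-206AS array. The 4 arrays without induced miR-22 thus lay close together, and both arrays with it stood clear above them. Its mean was 10.40 ± 0.07 with induction and 9.55 ± 0.04 without it in miR-22 cells (SD, n = 2 each), a rise of 0.85 (SE 0.149, 95% interval 0.48 to 1.22), or 1.80-fold, with an adjusted p of 0.0475 in limma. That call was close to the threshold: it was lost when any miR-22 array was dropped, and then adjusted p ran from 0.113 to 0.424 and the difference from 0.79 to 0.90, and with a further quantile normalization (difference 0.77, adjusted p = 0.0541). With each such array dropped, no row of the whole table passed in this comparison.

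**Figure D1:**
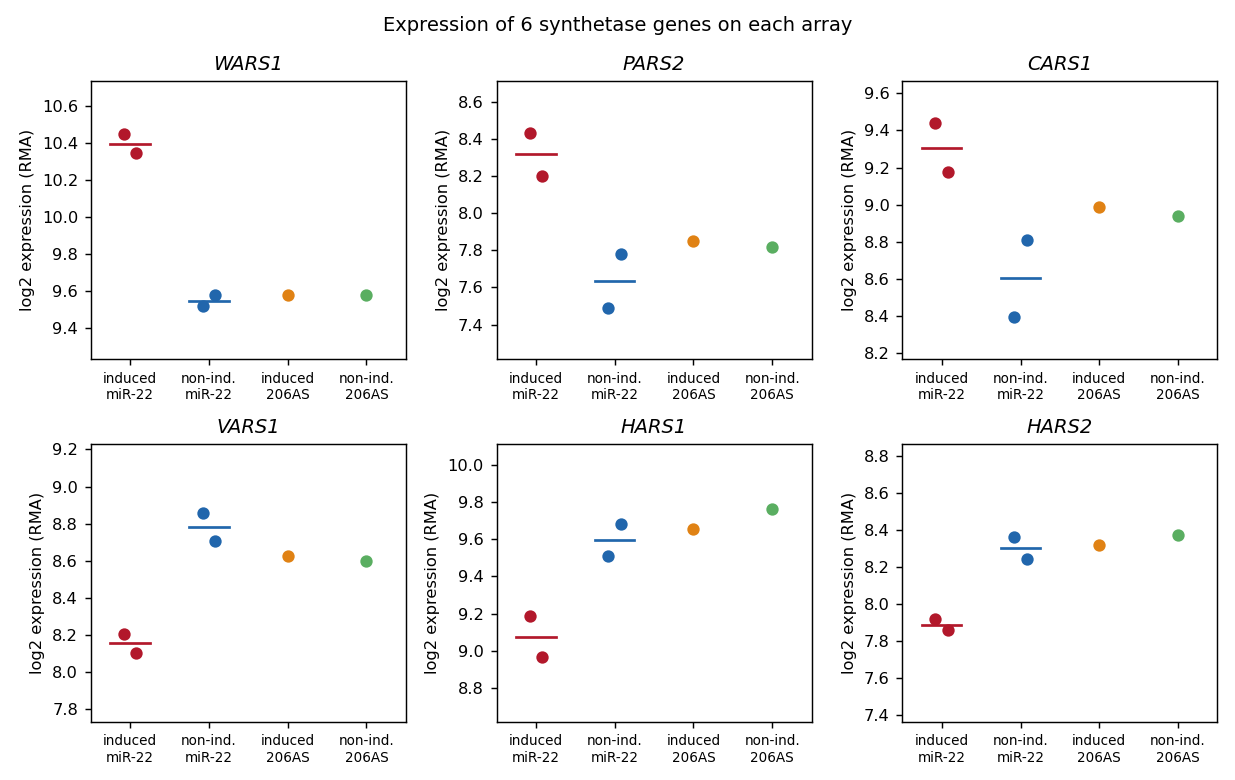
Log2 expression (RMA) of 6 synthetase genes, the 5 called in a comparison and CARS1, on each of the 6 arrays; each point is an array and each bar the mean of a miR-22 group (n = 2). WARS1 and PARS2 stand higher on both induced miR-22 arrays than on the other 4, CARS1 likewise, and VARS1, HARS1 and HARS2 lower.

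CARS1, AARS1 and SARS1 were at least 0.5 higher in induced miR-22 cells without passing the test. CARS1, the cysteine enzyme, read 9.44 and 9.18 in induced miR-22 cells, against 8.39 and 8.81 in the non-induced ones, with 8.98 on the induced and 8.94 on the non-induced NpBI-206AS array. AARS1, which charges alanine tRNAs, read 10.96 and 10.80 in induced miR-22 cells, against 10.12 and 10.54 in the non-induced ones, with 10.47 on the induced and 10.45 on the non-induced NpBI-206AS array. SARS1, the serine enzyme, which also charges the tRNA that is later converted to carry selenocysteine, read 11.25 and 11.13 in induced miR-22 cells, against 10.51 and 10.85 in the non-induced ones, with 10.75 on the induced and 10.79 on the non-induced NpBI-206AS array. In all of them the induced miR-22 arrays lay above the other 4, and non-induced replicate 1 was the lowest array, 0.34 to 0.42 below its replicate. The differences between the miR-22 groups were 0.71 (SE 0.206, adjusted p = 0.125) for CARS1, 0.54 (SE 0.197, adjusted p = 0.189) for AARS1 and 0.51 (SE 0.180, adjusted p = 0.181) for SARS1. Set against non-induced replicate 2 alone, the mean of the induced miR-22 arrays was 0.50, 0.34 and 0.34 higher for CARS1, AARS1 and SARS1, and set against replicate 1 alone it was 0.91, 0.75 and 0.68 higher.

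**Figure D2:**
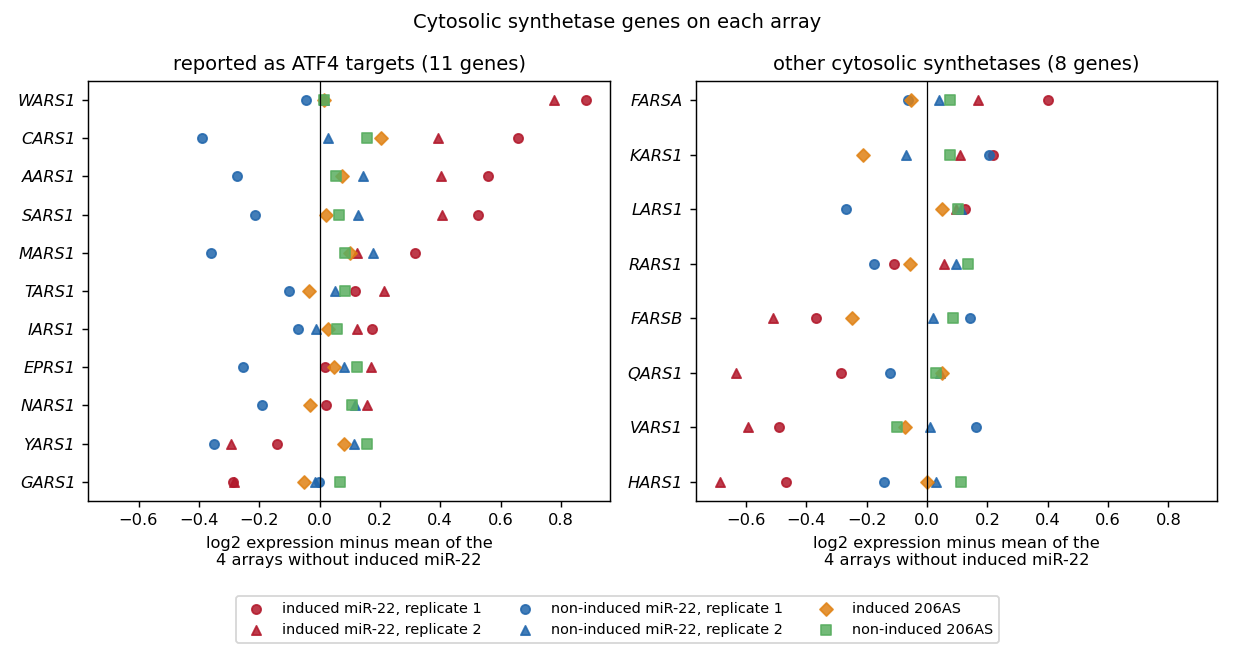
Each cytosolic synthetase gene on each array, as log2 expression minus the mean of the 4 arrays without induced miR-22, with genes reported as ATF4 targets on the left and the other cytosolic genes on the right. Non-induced miR-22 replicate 1 is the lowest array for most genes on the left, and the induced miR-22 arrays are the lowest for FARSB, QARS1, VARS1 and HARS1 on the right.

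Other cytosolic genes were lower in induced miR-22 cells, none past the threshold in this comparison. VARS1, the valine enzyme, read 8.21 and 8.10 in induced miR-22 cells, against 8.86 and 8.71 in the non-induced ones, with 8.62 on the induced and 8.60 on the non-induced NpBI-206AS array. Its difference of -0.63 (SE 0.155, adjusted p = 0.0895) was the largest in that direction among the synthetases, and a second row of this gene held identical values on every array. HARS1, the histidine enzyme, read 9.18 and 8.97 in induced miR-22 cells, against 9.51 and 9.68 in the non-induced ones, with 9.65 on the induced and 9.77 on the non-induced NpBI-206AS array (difference between the miR-22 groups -0.52, SE 0.167, adjusted p = 0.149). The groups did not overlap for either gene.

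The subunits of the cytosolic phenylalanine enzyme, which works as a tetramer of FARSA and FARSB chains, stood apart from each other. FARSB, the β chain, read 10.31 and 10.17 in induced miR-22 cells, against 10.82 and 10.70 in the non-induced ones, and the induced NpBI-206AS array, at 10.43, was also 0.34 lower than the non-induced one, at 10.77. The difference between the miR-22 groups was -0.52 (SE 0.155, adjusted p = 0.129). FARSA, the α chain, read 10.27 and 10.04 in induced miR-22 cells, against 9.81 and 9.91 in the non-induced ones, with 9.81 on the induced and 9.94 on the non-induced NpBI-206AS array (difference between the miR-22 groups 0.30, adjusted p = 0.372). Neither subunit passed the test, and the contrast between them was not itself tested.

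QARS1, the glutamine enzyme, and GARS1, the glycine enzyme, were also lower on both induced miR-22 arrays than on the other 4. QARS1 differed by -0.42 (adjusted p = 0.269) and GARS1 by -0.28 (adjusted p = 0.345). GARS1 was the tightest of the cytosolic genes, at 11.41 on both induced miR-22 arrays, against 11.69 and 11.68 on the non-induced ones. IARS1 for isoleucine and TARS1 for threonine were above the other 4 arrays on both induced ones, by 0.19 each against the non-induced miR-22 mean (adjusted p = 0.531 and 0.554). The remaining 7 cytosolic genes (EPRS1, KARS1, LARS1, MARS1, NARS1, RARS1 and YARS1) overlapped between the miR-22 groups, with differences from -0.10 for YARS1 to 0.31 for MARS1.

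The cytosolic enzymes EPRS1, IARS1, KARS1, LARS1, MARS1, QARS1 and RARS1 are known to assemble into a single multi-synthetase complex. None of these 7 genes was called between the miR-22 groups, nor had any an unadjusted p under 0.05 there in limma. Over all genes, 1.73% were called higher and 1.53% lower, and 12.1% and 9.12% had such an unadjusted p. The 7 genes of the complex had a median difference of 0.18, and QARS1 (-0.42) and MARS1 (0.31) were the farthest from 0. AIMP1, the only scaffold protein gene of this complex with a row of its own among the 3 listed, read 7.13 and 7.29 in induced miR-22 cells, against 7.41 and 7.52 in the non-induced ones, a difference of -0.25 (adjusted p = 0.426).

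**Figure D3:**
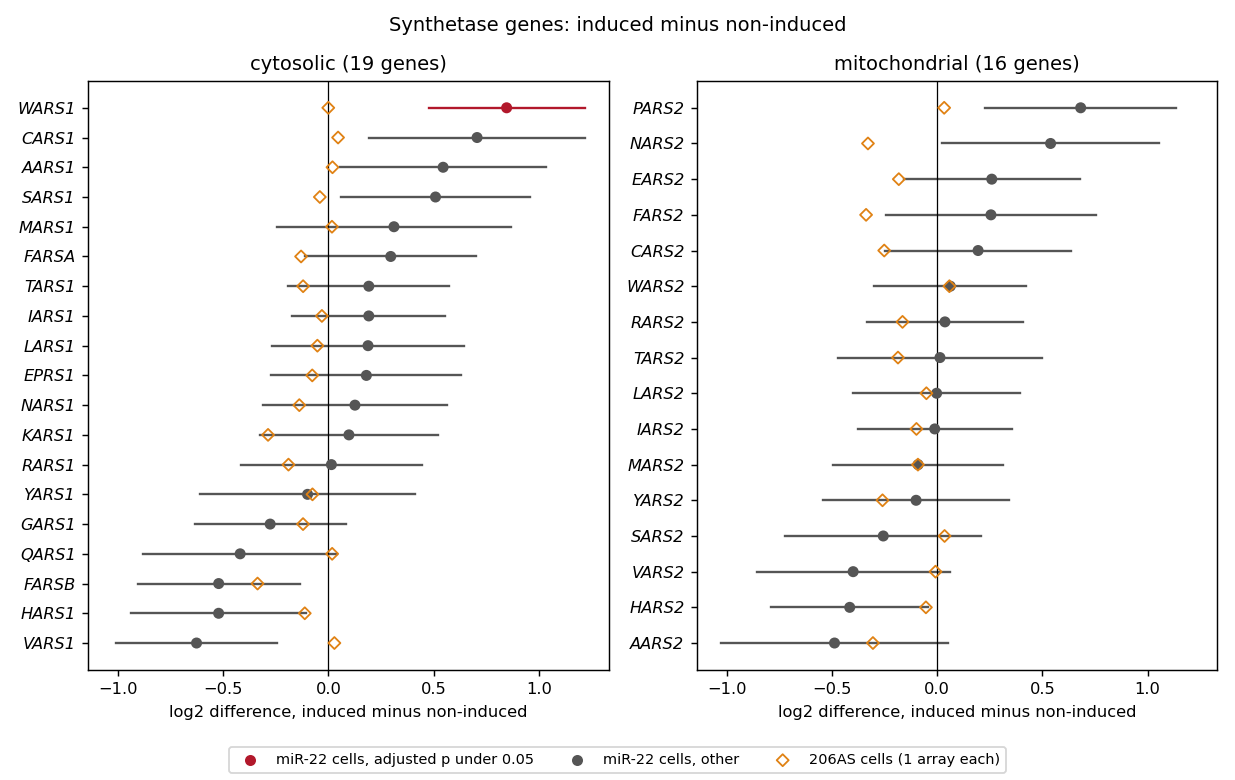
Log2 difference of each synthetase gene, induced minus non-induced, for miR-22 cells (filled points with limma's 95% interval, n = 2 arrays per group) and for NpBI-206AS cells (open diamonds, 1 array per group, no error). WARS1 is marked as the gene past the threshold in miR-22 cells, and the NpBI-206AS differences run from -0.34 to 0.06.

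None of the 16 mitochondrial genes was called between the induced and the non-induced miR-22 cells, while 2 were higher and 1 was lower at an unadjusted p under 0.05 in limma, against 12.1% and 9.12% of all genes. PARS2, which loads proline inside mitochondria, read 8.44 and 8.20 in induced miR-22 cells, against 7.49 and 7.78 in the non-induced ones, with 7.85 on the induced and 7.82 on the non-induced NpBI-206AS array. Both induced miR-22 arrays lay above all others, and the difference was 0.68 (SE 0.182, adjusted p = 0.105). NARS2, the mitochondrial asparagine enzyme, read 8.97 and 9.14 in induced miR-22 cells, against 8.28 and 8.75 in the non-induced ones. It read 8.57 on the induced and 8.90 on the non-induced NpBI-206AS array, so the highest of the other arrays came within 0.1 of the lower induced miR-22 array. The difference between the miR-22 groups was 0.54 (SE 0.207, adjusted p = 0.213).

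HARS2, AARS2 and VARS2 were lower on both induced miR-22 arrays than on the other 4. HARS2, for histidine, read 7.92 and 7.86 in induced miR-22 cells, against 8.36 and 8.24 in the non-induced ones, with 8.32 on the induced and 8.37 on the non-induced NpBI-206AS array (difference between the miR-22 groups -0.42, SE 0.150, adjusted p = 0.188). AARS2, the mitochondrial alanine enzyme, read 7.08 and 6.58 in induced miR-22 cells, against 7.21 and 7.43 in the non-induced ones, with 7.29 on the induced and 7.59 on the non-induced NpBI-206AS array. Its induced miR-22 replicates were 0.50 apart, more than those of any other synthetase gene, and the difference was -0.49 (adjusted p = 0.275). VARS2, for valine, read 6.28 and 6.06 in induced miR-22 cells, against 6.41 and 6.73 in the non-induced ones (difference -0.40, adjusted p = 0.292), and a second row of this gene gave -0.41. WARS2 and EARS2, the mitochondrial tryptophan and glutamate enzymes, were above both non-induced miR-22 arrays on both induced ones, by 0.06 and 0.26. For WARS2 both induced miR-22 arrays (7.99 and 7.95) lay below the induced (8.07) and the non-induced (8.01) NpBI-206AS array. For EARS2 they overlapped with the NpBI-206AS arrays. The other 9 mitochondrial genes (CARS2, FARS2, IARS2, LARS2, MARS2, RARS2, SARS2, TARS2 and YARS2) overlapped, with differences from -0.26 for SARS2 to 0.26 for FARS2.

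With the 2 induced miR-22 arrays set against all 4 arrays without induced miR-22, 5 synthetase genes passed in limma. This comparison shares both induced miR-22 arrays and the non-induced miR-22 arrays with the one above and adds the NpBI-206AS arrays to the control side. The fit treats those 4 control arrays as replicates of 1 group, although they come from 2 lines and 1 had doxycycline. Of them, 3 share a code prefix and lay closer together than the non-induced miR-22 replicates. The spread behind these adjusted p-values thus partly reflects agreement within that prefix. WARS1 rose by 0.83 (SE 0.105, adjusted p = 0.00352) and PARS2 by 0.58 (SE 0.144, adjusted p = 0.0366). HARS1 fell by 0.58 (SE 0.126, adjusted p = 0.0234), VARS1 fell by 0.54 (SE 0.121, adjusted p = 0.0261) and HARS2 fell by 0.44 (SE 0.106, adjusted p = 0.0344). The 2 genes that rose and the 3 that fell stand beside 7.78% and 6.31% of all genes. Both induced miR-22 arrays lay above the other 4 in 9 synthetase genes and below them in 8, against 22.1% and 17.2% of all genes. Of the 5 calls only that of WARS1 was made whichever miR-22 array was left out. The count depended on non-induced miR-22 replicate 1: without it 4 genes rose (WARS1, PARS2, AARS1 and SARS1) and 6 fell (HARS1, VARS1, HARS2, QARS1, AARS2 and VARS2), while with any other miR-22 array left out 1 rose and none fell. The whole table moved in the same way: 10.5% of all rows rose and 12.0% fell without that replicate, against 1.12% to 3.53% and 1.57% to 4.4% with another miR-22 array left out.

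HARS1 and HARS2, both of them lower here, are neighbouring genes read from opposite strands. In RefSeq (GRCh38.p14) their starts lie 85 bases apart on chromosome 5, and their promoter windows, which reach 250 bases before each start, share 184 bases. The 84 bases between the starts, chr5:140691371-140691454 on the plus strand, are shown because they lie upstream of both genes. The enzymes are similar in sequence, and whether probes of one also bind transcripts of the other was not tested.
HARS1-HARS2: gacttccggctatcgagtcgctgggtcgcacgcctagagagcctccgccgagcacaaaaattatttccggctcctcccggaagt

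The remaining comparisons bear on doxycycline and on the line. Induced miR-22 cells set against induced NpBI-206AS cells, which both had the drug, gave no call among the synthetases in limma, and 0.168% of all genes rose and 0.076% fell. At an unadjusted p under 0.05 there was 1 synthetase gene higher and 1 lower, beside 7.82% higher and 6.93% lower over all genes. WARS1 was 0.82 higher in that comparison (SE 0.182, adjusted p = 0.129) and HARS1 differed by -0.58 (adjusted p = 0.263). Where the response of one line was subtracted from that of the other, the share called was 0% of all genes in either direction, and 1 synthetase gene, WARS1, had an unadjusted p under 0.05 in limma, with a higher value, beside 4.76% higher and 3.26% lower over all genes at that level. Its response was 0.85 above that of NpBI-206AS cells (SE 0.258, 95% interval 0.21 to 1.49, adjusted p = 0.464). Between the 2 arrays of NpBI-206AS cells, no synthetase gene differed by 2-fold, against 0.109% of all genes. The induced minus non-induced differences in that line ran from -0.34 for FARS2 to 0.06 for WARS2, with a median of -0.09, and were above 0 in 8 of the 35 genes, beside a median of 0.0035 over all genes, of which 9340 of 18417 were above 0. In 9 of the 35 genes the miR-22 groups did not overlap and the NpBI-206AS pair differed the opposite way, against 25.5% of all genes. With 1 array each, these values have no replicate check.

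Cytosolic and mitochondrial enzymes were compared by their counts and medians. Between the induced and the non-induced miR-22 cells the median difference was 0.18 over the 19 cytosolic genes, 0.0051 over the 16 mitochondrial genes and 0.0072 over all 18417 genes. Of these, 13 cytosolic and 8 mitochondrial genes had a difference above 0. The cytosolic median rested on non-induced miR-22 replicate 1, and without that array it was 0.013. This array read below its replicate in 15 of 19 cytosolic and 13 of 16 mitochondrial genes, against 8709 of all 18417 genes, with a median gap of -0.21 over the 35. The part of this gap in the differences above was not tested.

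For 13 amino acids the cytosolic and the mitochondrial enzyme are each encoded by 1 gene of the set. The cytosolic gene had the higher difference in 9 of these pairs and the signs were the same in 8, with a median of 0.19 for the cytosolic minus the mitochondrial difference. The widest gaps were for alanine (AARS1 0.54, AARS2 -0.49), tryptophan (WARS1 0.85, WARS2 0.06) and serine (SARS1 0.51, SARS2 -0.26). Asparagine ran the other way (NARS1 0.13, NARS2 0.54), and for histidine and valine both genes of the pair were below 0. Proline has a mitochondrial enzyme of its own, while in the cytosol EPRS1 charges both proline and glutamate. EPRS1 differed by 0.18 (adjusted p = 0.643), beside 0.68 for PARS2 and 0.26 for EARS2.

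**Figure D4:**
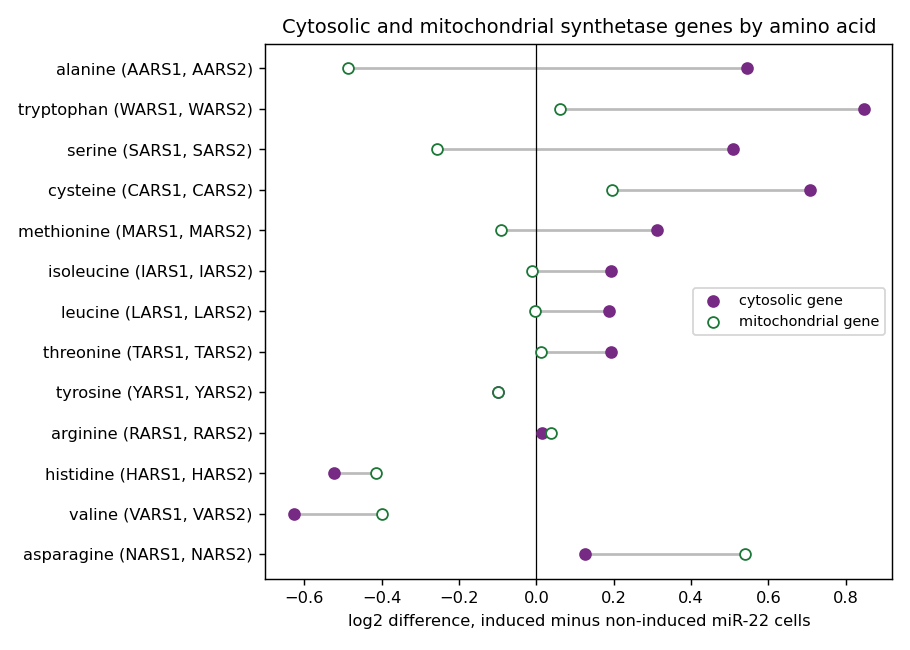
Log2 difference between the induced and the non-induced miR-22 cells for the cytosolic gene (filled) and the mitochondrial gene (open) of each of 13 amino acids, ordered by the gap between them. The cytosolic gene lies to the right in 9 pairs, most clearly for alanine, tryptophan and serine, and asparagine shows the widest gap the other way.

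Synthetases fall into 2 structural classes with unrelated catalytic folds. The 19 class I genes had a median difference of 0.04 and the 17 class II genes 0.13, with EPRS1, which joins an enzyme of each class, counted in both. WARS1, in class I, was the only call between the miR-22 groups.

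A list of 11 cytosolic synthetase genes reported as ATF4 targets (AARS1, CARS1, EPRS1, GARS1, IARS1, MARS1, NARS1, SARS1, TARS1, WARS1 and YARS1) had a median difference of 0.19 between the induced and the non-induced miR-22 cells, with 9 above 0 and WARS1 called. The miR-22 groups did not overlap in 7 of them, 6 higher and 1 lower in induced cells. The other 8 cytosolic genes had a median of -0.20, with 1 higher and 4 lower without overlap and none called. The list was chosen with earlier results of these data known, and the contrast between these sets was not tested. Over all genes 27.9% were higher and 24.5% lower without overlap. Non-induced miR-22 replicate 1 lay below its replicate in 10 of the 11 listed genes and in 5 of the other 8. Against non-induced replicate 2 alone the medians were 0.12 and -0.29, and against the 3 arrays with the shared code prefix they were 0.13 and -0.24.

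The core of the C/EBP-ATF response element, which ATF4 binds together with C/EBP factors, was searched for as TGATGNAA on both strands in RefSeq promoter windows (GRCh38.p14, 250 bases before to 50 after a start). Of the 35 genes, 30 had a window and 9 of them had 2, which made 39 windows. The core was in 20.5% of these windows, against 3.62% of all 35116 windows and 2.69% of the 22199 windows of protein-coding genes. It occurred in 7 of 16 cytosolic genes with a window and in 1 of 14 mitochondrial genes. The matches are printed 5′ to 3′ on the gene's strand, with the core in capitals, because these genes share it. A match is a description of these letters and not a binding site.
AARS1: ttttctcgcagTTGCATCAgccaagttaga
CARS1: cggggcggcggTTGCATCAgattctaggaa
GARS1: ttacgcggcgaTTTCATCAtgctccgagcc
IARS1: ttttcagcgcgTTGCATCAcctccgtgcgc
MARS1: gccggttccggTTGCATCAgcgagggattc
NARS1: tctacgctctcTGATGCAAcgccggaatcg
TARS1: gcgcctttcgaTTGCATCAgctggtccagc
YARS2: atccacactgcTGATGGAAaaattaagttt

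These stretches lie at chr16:70289675-70289704 (minus strand) for AARS1, chr11:3057407-3057436 (minus) for CARS1, chr7:30594834-30594863 (plus) for GARS1 and chr9:92293692-92293721 (minus) for IARS1. Those of MARS1, NARS1, TARS1 and YARS2 lie at chr12:57488053-57488082 (plus), chr18:57621804-57621833 (minus), chr5:33440956-33440985 (plus) and chr12:32756076-32756105 (minus). In CARS1, MARS1 and TARS1 the core begins within 4 bases of the annotated start. The 7 cytosolic genes with the core had a median difference of 0.19 between the induced and the non-induced miR-22 cells and no call. Of them 2, AARS1 and CARS1, were higher at an unadjusted p under 0.05 in limma, against 12.1% of all genes. The 9 with a window but without these letters had a median of 0.10, and WARS1, the gene that rose, was among them. At an unadjusted p under 0.05 in limma, 2 of these 9 were higher and 2 lower, and none of the 7 with the core was lower. Over all genes 9.12% were lower at that level.

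WARS1 has 2 windows in RefSeq, on the minus strand of chromosome 14, and neither holds TGATGNAA. The 120 bases before each start, chr14:100376328-100376447 and chr14:100375348-100375467, are shown because WARS1 was the synthetase gene that rose in the comparison of the miR-22 groups.
WARS1 window 1: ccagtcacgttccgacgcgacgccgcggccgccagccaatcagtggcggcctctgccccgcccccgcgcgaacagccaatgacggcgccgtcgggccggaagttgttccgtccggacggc
WARS1 window 2: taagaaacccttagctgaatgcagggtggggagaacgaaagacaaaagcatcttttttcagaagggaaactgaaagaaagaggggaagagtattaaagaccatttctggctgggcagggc

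Outside the response to amino acid stress, WARS1 is known for its strong induction by interferon γ. Among 9 measured interferon-responsive genes none was called in the comparison of the miR-22 groups, and the median was 0.0088. At an unadjusted p under 0.05 in limma, 1 was higher and 1 lower, beside 12.1% and 9.12% of all genes. IFIT3, an antiviral effector, had the largest difference. It read 8.63 and 8.83 in induced miR-22 cells, against 7.92 and 8.17 in the non-induced ones (difference 0.68, adjusted p = 0.0940), and rose by 0.87 against the other 4 arrays (adjusted p = 0.0159). GBP2, a guanylate-binding protein, differed by -0.55 (adjusted p = 0.443), with non-induced replicate 1 at 6.83 and replicate 2 at 7.87. IRF1, the transcription factor of the same response, differed by -0.0009 (adjusted p = 0.999).

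Other genes of the ATF4 response were measured as a list of 12, and 2 of them rose in induced over non-induced miR-22 cells. ASNS, which makes asparagine, read 8.95 and 8.86 in induced miR-22 cells, against 7.57 and 7.89 in the non-induced ones (rise of 1.17, adjusted p = 0.0347). CHAC1, which degrades glutathione, read 7.57 and 7.12 in induced miR-22 cells, against 5.75 and 6.14 in the non-induced ones (rise of 1.40, adjusted p = 0.0411). The median over the 12 genes was 0.86, in 10 of them both induced miR-22 arrays lay above the other 4, and 7 rose against those 4 arrays. Over all genes, 1.73% rose between the miR-22 groups, 22.1% lay above the other 4 arrays and 7.78% rose against them. ATF4 itself differed by 0.28 (adjusted p = 0.360). In 9 of the 12 non-induced replicate 1 lay below replicate 2, and against replicate 2 alone the median was 0.66. The synthetases reported as targets of the same factor, at a median of 0.19, thus had a smaller median than this list, a contrast that was not tested.

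Genes that act beside the synthetases were read from lists as well. Of 9 genes of amino acid and tRNA sensing and its signalling, none was called between the miR-22 groups. At an unadjusted p under 0.05 in limma, 3 were higher and 0 lower, beside 12.1% and 9.12% of all genes. The GTPases RRAGC (0.65, adjusted p = 0.134) and RRAGB (0.58, adjusted p = 0.114), which carry the amino acid signal to mTORC1, were farthest from 0, while the tRNA-sensing kinase gene EIF2AK4 differed by 0.02. None of the 4 mitochondrial charging helpers was called in that comparison or had an unadjusted p under 0.05 in it. Over all genes, 1.73% were called higher and 1.53% lower, and 12.1% and 9.12% had such an unadjusted p. GATC, a subunit of the enzyme that converts glutamate to glutamine on mitochondrial tRNA, differed by 0.38, and MTFMT, which formylates the mitochondrial initiator, by -0.30. PSTK, the kinase that acts on the serine loaded by SARS1 on the way to selenocysteine, read 7.30 and 7.65 in induced miR-22 cells, against 6.10 and 6.38 in the non-induced ones, a rise of 1.24 (adjusted p = 0.0390). It was the only call among 4 measured genes of tRNA editing and selenocysteine synthesis, beside 1.73% of all genes that rose. DTD2, a deacylase of misloaded tRNA, also rose against the other 4 arrays, by 0.58 (adjusted p = 0.0404), beside 7.78% of all genes.

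Elongation factors deliver the charged tRNAs to the ribosome. Of 6 cytosolic elongation factor genes, 2 rose between the induced and the non-induced miR-22 cells and none fell. The same comparison called 1.73% of all genes higher and 1.53% lower. EEF1B2, an exchange factor subunit, read 8.34 and 8.15 in induced miR-22 cells, against 7.38 and 7.24 in the non-induced ones, with 7.14 on the induced and 7.11 on the non-induced NpBI-206AS array (rise of 0.93, adjusted p = 0.0451). EEF1A2, the muscle and neuron form of the factor that carries charged tRNA, read 8.19 and 8.11 in induced miR-22 cells, against 7.12 and 7.32 in the non-induced ones (rise of 0.93, adjusted p = 0.0443). It read 7.89 on the induced and 7.54 on the non-induced NpBI-206AS array, above both non-induced miR-22 arrays, and did not pass against the other 4 arrays (0.68, adjusted p = 0.0703). None of 7 measured mitochondrial translation factor genes was called between the miR-22 groups. At an unadjusted p under 0.05 in limma 1 was higher, the initiation factor MTIF3 (0.71, adjusted p = 0.150), beside 12.1% of all genes. MTIF2, another mitochondrial initiation factor gene, differed by 0.46 (adjusted p = 0.280).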

How the data were processed

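Each of 6 RD18 cultures gave total RNA for 1 array. The deposited values are log2 expression; the submitters' processing notes name Partek and RMA, with no versions. RMA equalises the arrays' distributions, so a change shared by all transcripts would not be seen. The genome build of the annotation is not given in the sources used here. Rows were named through the platform annotation, with symbols updated by gene ID: 19460 rows carried 1 symbol (19429 matched by ID), 1754 several and 12083 none, and 769 of the 18417 genes had more than 1 row. The table gives no detection calls, and the number of arrays limits the precision.

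The tests used limma 3.58.1 (R 4.3.3) on these log2 values and were two-sided, and p-values were adjusted by Benjamini-Hochberg over 33297 rows with a threshold of 0.05. A fit of 4 group means to the 6 arrays (2 residual and 3.62 prior degrees of freedom) gave the comparisons of induced miR-22 cells with non-induced miR-22 and with induced NpBI-206AS cells, and the difference between the lines' responses; the lone NpBI-206AS arrays were assumed to vary like the others. A 2-group fit compared the induced miR-22 arrays with the other 4. The models were tested on simulated arrays. Same-numbered replicates deviated together with a correlation of 0.196, but 2 pairs do not establish pairing, and no replicate block was used.

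Members and gene lists were chosen with earlier results of these data known. Full values are given for members called in any comparison, for those whose miR-22 groups did not overlap and differed by at least 0.5, and for the 4 cytosolic and 4 mitochondrial members with the largest differences (11 genes); from each list, members called are named, otherwise the 2 with the largest differences. A few further genes, such as ATF4, IRF1 and EIF2AK4, are named beside these. The alternatives left out each miR-22 array in turn, changed the normalization, removed the dimmest rows, averaged a gene's rows, used an intensity trend or a replicate block, or kept only the 4 miR-22 arrays. Sequences come from RefSeq, GRCh38.p14; AARS2, LARS1, VARS1, VARS2 and YARS1 had no promoter window.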

Additional observations from a re-analysis of the deposited data

Results flagged for a closer look

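In 9 of the 35 synthetase genes both induced miR-22 arrays lay on 1 side of both non-induced miR-22 arrays while the single pair of NpBI-206AS arrays differed the opposite way. This pattern was shown by 25.5% of all genes, so the share among the synthetases was near that of the array as a whole. The response of miR-22 cells minus that of NpBI-206AS cells was 0.87 for NARS2, 0.85 for WARS1, 0.55 for SARS1, 0.44 for EARS2, 0.43 for FARSA, 0.31 for TARS1, 0.22 for IARS1, -0.44 for QARS1 and -0.66 for VARS1. None of them passed the test of that difference in limma (adjusted p = 0.464 for WARS1, 0.566 for VARS1 and 0.572 for NARS2). For WARS1 the NpBI-206AS difference was -0.0010, and for NARS2 it was -0.33. The NpBI-206AS arrays have no replicate.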

How the results depend on the processing

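Between the miR-22 groups, the count of synthetase genes that rose was 0 (0 to 0) with each miR-22 array left out in turn and 0 with a further quantile normalization, and 1 gene (VARS1, adjusted p = 0.0469) fell with the dimmer rows removed, which leaves 16648 of 33297 rows to adjust over. Against the other 4 arrays, leaving out 1 miR-22 array gave 1 to 4 genes that rose and 0 to 6 that fell, and removing the dimmest rows gave 4 and 7, when 13.3% and 15.2% of the remaining rows rose and fell. The cytosolic median ran from 0.013 (without non-induced replicate 1) to 0.27 with an array left out; the mitochondrial median moved by less than the spread between replicates in each setting. In the difference between the miR-22 groups, none of the 11 named genes changed sign in the alternatives run. Sides of the threshold say little here, since no row passed with a miR-22 array left out and the fit to the 4 miR-22 arrays alone equals the reported one. The intensity trend and the 4 miR-22 arrays alone were chosen for the medians and single genes after seeing the data. With the replicate block WARS1 stayed the only call (0.85, adjusted p = 0.0335), while over all rows 1327 rose and 1628 fell, against 531 and 669 without it. Rows called also moved past 1.5 times without the dimmer rows, to 1238 that rose and 1371 that fell. Comparisons with induced NpBI-206AS cells and between the lines' responses called no synthetase gene in any setting run. Centring each array on its median gave 718 rows that rose and 574 that fell, moved the median of all rows to 0.06 and kept WARS1 (0.92, adjusted p = 0.0387).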
